A study of Penicillium oxalicum with 6 samples.

Results

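The 63 genes described here are glycoside hydrolase (GH) genes of the filamentous fungus *Penicillium oxalicum* outside the main cellulase, xylanase and amylase genes. They came from the study's supplementary list of genes changed between strains GXUR001 and TE4-10, so they were chosen by their expression difference in the same contrast that is described below, and their direction and size are given as a description without a test. The copy of the list used here held 1998 genes with IDs from POX_a to POX_d, of which 191 had a carbohydrate-active enzyme entry and 82 had a GH entry. The study also names changed genes with IDs beyond POX_d, so the copy was partial. Counts by family below are therefore counts among the 63 genes and not of whole families in the genome. Of these 82 genes, 17 were left out by name (cellulase, xylanase, arabinofuranosidase, pectinase and amylase genes) and 2 because they also carried an entry for a carbohydrate esterase (CE) or an auxiliary activity (AA) enzyme. The amylase genes among the 17 were only the putative glucoamylase gene *POX_b02418* and the GH13 gene *POX_b03245*. The series held FPKM values (fragments of a gene, scaled by its length and by the mapped fragments in a library) for 11159 features, of which 9822 were annotated genes. The 63 genes fell into 36 families by the first family listed, 22 of which had 1 gene, and 16 genes listed more than 1 GH family. The list names no product for 21 of them, which it calls hypothetical proteins. All 63 genes had a mean FPKM of at least 1 and so entered the fit over 9636 features. Of these, 8490 were annotated genes, and all 9636 are called genes below.

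Both strains were grown as mycelium for 24 h in glucose medium and then for 24 h in an inducing medium. The labels give raw starch as the carbon source of that medium, whereas the study's text gives wheat bran plus Avicel, a microcrystalline cellulose, for induction. GXUR001 is TE4-10 with *PoxCxrC*, a gene for a transcriptional repressor, deleted and *PoxAmyR* (*POX_f08097*), which encodes the transcriptional activator of amylase genes, overexpressed in the same step, so the effects of the 2 alterations cannot be told apart. TE4-10 is labelled as wild type but is itself a mutant, obtained by ethyl methanesulfonate (EMS) and γ-ray treatment of mutant A2-13, which in turn came from random mutagenesis (ARTP and/or EMS) of a *PoxKu70*-deleted line overexpressing the glucoamylase gene *PoxGA15A*, and GXUR001 descends from the same line. GXUR001 was represented by 3 libraries and TE4-10 by 2 (replicates 1 and 3), while replicate 2 of TE4-10 was not analysed here. GXUR001 is 1 engineered strain, and the libraries are replicate cultures of it.

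Glycoside hydrolases cut the bond between sugars, or between a sugar and another group, and are sorted into numbered families by sequence. A fungus uses them on its food, where they strip the side chains of hemicellulose and pectin so that the backbones can be cut, and on itself, where they remodel the glucan, chitin and mannan of the growing wall and trim the glycans of secreted proteins. Some families also hold transglycosylases, which join sugar chains rather than cutting them.

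*PoxAmyR* stood at 90.6, 84.1 and 74.3 FPKM in the GXUR001 libraries and at 62.8 and 66.7 FPKM in the TE4-10 libraries, so every GXUR001 library lay above both TE4-10 libraries. *PoxCxrC* could not be checked, because no table used here ties that name to a gene ID. The deposited FPKM summed to between 1218691 and 1295493 per library, and low values in the files gave relative depths of 1.05 to 1.10 for a GXUR001 library over a TE4-10 library. Fewer cells in a given state and less RNA per cell cannot be told apart in such bulk mycelium. A factor for each library, the median of its ratios to a geometric mean library built from all 5, was divided out, and the result is called rescaled FPKM. After this step the median over all genes was a log2 fold change of 0.00, against -0.26 in the deposited FPKM. Fold changes below are GXUR001 minus TE4-10 on the log2(rescaled FPKM + 1) scale with the standard error (SE) of the limma fit, and levels are FPKM as deposited unless they are called rescaled.

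Of the 63 genes, 26 were higher and 37 lower in GXUR001. The 26 were led by a GH84 gene (1.47) and the 37 by a GH92 gene (-1.40), and the median over all of them was -0.31. The limma fit with Benjamini-Hochberg adjustment over all genes called 28 of the 63 at an adjusted p under 0.05, against 17.8% of all genes tested. In the higher direction 10 were called, against 9.74% of all genes, and in the lower direction 18, against 8.08%. Nothing can be read from that excess, because the genes were taken from a list of changed genes. The rescaled levels of all GXUR001 libraries lay above those of both TE4-10 libraries for 23 genes (26.7% of all genes) and below them for 36 (26.5% of all genes), and the groups overlapped for 4, namely *POX_a00961*, *POX_a01088*, *POX_b01946* and *POX_b03390*. In the deposited FPKM the corresponding counts were 15 above and 37 below. An absolute log2 fold change over 1 was found for 10 genes, 6 higher and 4 lower, against 8.43% of all genes. Of the 4 lower ones, *POX_c04245* met the level filter only through TE4-10. It had 3.40 and 1.01 FPKM there and 0.41, 0.32 and 0.11 FPKM in GXUR001. The smallest changes among the 63 were those of the GH92 gene *POX_d05562* (-0.18 ± 0.11) and the GH55 gene *POX_a00100* (-0.21 ± 0.09). Calls depended on single libraries: without GXUR001 replicate 2, limma called 0 of the 63 and 17 of all genes, although the unadjusted p was under 0.05 for 16 higher and 18 lower ones.

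**Figure D1:**
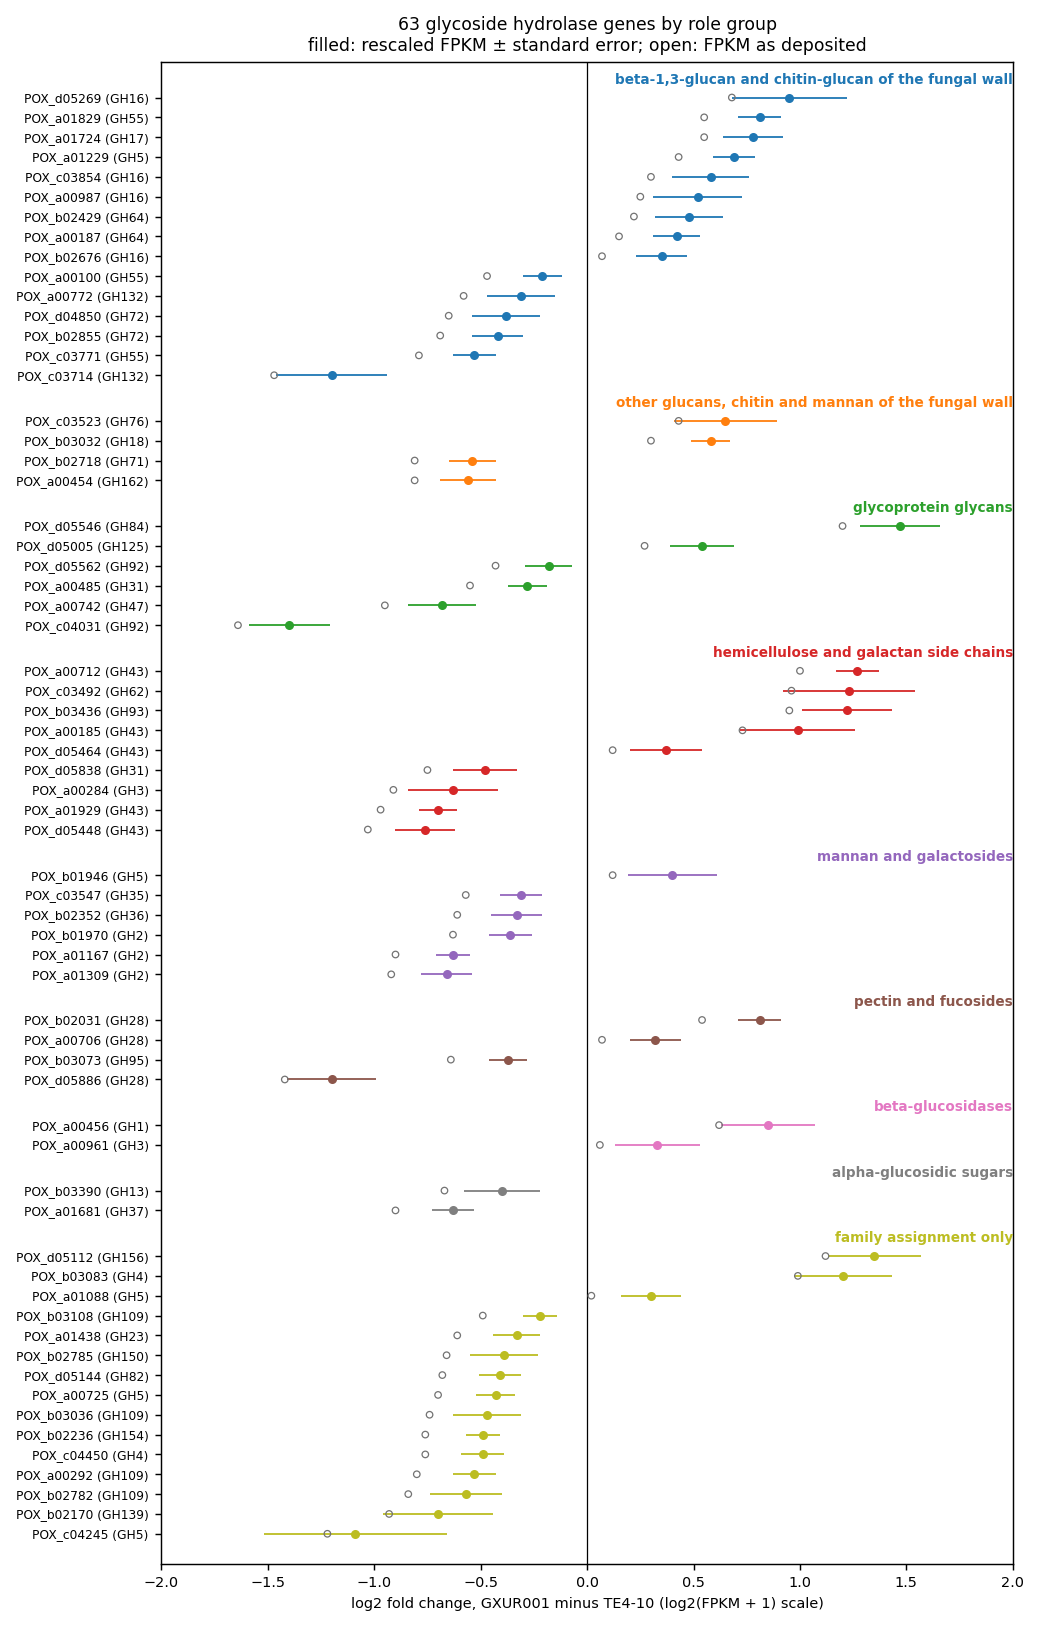
Log2 fold change (GXUR001 minus TE4-10) of the 63 glycoside hydrolase genes, in groups by the substrate their family or product name points to. Filled points are rescaled FPKM with the standard error of the fit, and open points are FPKM as deposited. The values run from -1.40 to 1.47, and most groups hold genes on both sides of 0.

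The median level of the 63 genes was 33.5, 33.5 and 37.1 FPKM in the GXUR001 libraries and 54.0 and 52.5 FPKM in the TE4-10 libraries, against medians over all annotated genes of 22.2, 23.4 and 25.2 FPKM in GXUR001 and 29.4 and 28.8 FPKM in TE4-10. Together the 63 genes held 0.933% to 1.14% of all FPKM in a library. A single gene, the mannanase gene *POX_b01946*, supplied 32.4% to 39.1% of that sum. Levels thus spanned a wide range, with 16 to 18 genes above 100 FPKM and 9 to 12 under 10 FPKM in each library.

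A group of 15 genes comprised enzymes that cut, extend or cross-link the β-glucan of the fungal wall. In this group 9 genes were higher and 6 lower in GXUR001, with 3 and 2 called, against 9.74% and 8.08% of all genes. The median log2 fold change was 0.42, against 0.00 over all genes. These values are a description only, because the genes came from a list of changed genes. By family, all 4 genes of GH16, the family of the enzymes that tie chitin to glucan, had higher mean levels in GXUR001, as did both genes of GH64 and the single gene of GH17, but none of the 6 genes of GH16 and GH64 was called. Both genes of GH72, the transglycosylases that lengthen glucan chains, and both genes of GH132 were lower. GH55 was divided.

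The most abundant wall gene belonged to GH16. This gene, *POX_b02676*, annotated as a putative chitin glucanosyltransferase, had 1070, 1035 and 1042 FPKM in GXUR001 and 1083 and 917 FPKM in TE4-10. Its deposited values overlapped and its rescaled ones did not, with a log2 fold change of 0.35 ± 0.12 (SE). *POX_c03854*, a GH16 gene without a named product, had 920, 812 and 742 FPKM in GXUR001 and 751 and 592 FPKM in TE4-10, with a log2 fold change of 0.58 ± 0.18. The third, *POX_a00987*, another putative chitin glucanosyltransferase, had 107, 97.5 and 83.8 FPKM in GXUR001 and 96.3 and 66.8 FPKM in TE4-10, a log2 fold change of 0.52 ± 0.21. For these 3 genes the deposited ranges thus overlapped between the strains and were separated only after rescaling. *POX_d05269*, the fourth GH16 gene, differed most: it had 149, 172 and 198 FPKM in GXUR001 and 79.8 and 143 FPKM in TE4-10. Its log2 fold change of 0.95 ± 0.27 became 0.50 with TE4-10 replicate 1 left out and 1.40 with replicate 3 left out, since the TE4-10 libraries themselves lay far apart.

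GH55, a family of β-1,3-glucanases that work from the chain end, held 1 higher and 2 lower genes. *POX_a01829* had 20.4, 21.7 and 25.8 FPKM in GXUR001 and 15.5 and 14.6 FPKM in TE4-10, a log2 fold change of 0.81 ± 0.10. *POX_c03771*, with the same product name, had 15.1, 14.5 and 18.0 FPKM in GXUR001 and 29.3 and 27.0 FPKM in TE4-10, and its log2 fold change was -0.53 ± 0.10. *POX_a00100*, without a named product, had 17.7, 19.2 and 19.8 FPKM in GXUR001 and 28.1 and 25.0 FPKM in TE4-10. In *POX_a01829* every GXUR001 library lay above both TE4-10 libraries, and in the other 2 every one lay below. Across the family the rescaled sum was 60.8, 60.4 and 64.2 in GXUR001 and 63.7 and 60.6 in TE4-10, so opposite changes of single genes left sums that overlapped between the strains.

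The remaining β-1,3-glucanase genes were higher. The GH5 gene *POX_a01229*, a putative exo-β-1,3-glucanase, had 21.7, 24.3 and 26.7 FPKM in GXUR001 and 17.0 and 18.3 FPKM in TE4-10, a log2 fold change of 0.69 ± 0.10. The GH17 gene *POX_a01724*, of the same predicted activity, averaged 7.34 FPKM in GXUR001 and 4.70 FPKM in TE4-10 (0.78 ± 0.14). The GH64 genes *POX_a00187*, placed here by family without a named product, and *POX_b02429* had smaller log2 fold changes of 0.42 ± 0.11 and 0.48 ± 0.16. Of these 4 genes, the GH64 pair was separated between the strains only after rescaling.

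The lower wall genes included both members of GH132, the family of the yeast SUN proteins, which in *Saccharomyces cerevisiae* act in septation and the separation of cells. *POX_c03714* was the most reduced wall gene, with 24.4, 24.3 and 19.3 FPKM in GXUR001 and 83.8 and 49.1 FPKM in TE4-10. Its log2 fold change was -1.20 ± 0.26, or -0.85 when TE4-10 replicate 1 was left out and -1.55 when replicate 3 was. *POX_a00772*, the more abundant GH132 gene, had 501, 499 and 449 FPKM in GXUR001 and 823 and 636 FPKM in TE4-10, a log2 fold change of -0.31 ± 0.16. Both SUN genes were below TE4-10 in every GXUR001 library, but only *POX_c03714* was called. The GH72 genes *POX_d04850* and *POX_b02855*, putative β-1,3-glucanosyltransglycosylases, had log2 fold changes of -0.38 ± 0.16 and -0.42 ± 0.12 and were not called.

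Among the 4 genes for other wall polymers, 2 were higher and 2 lower. The putative chitinase gene *POX_b03032* (GH18) was the most abundant, with 247, 248 and 286 FPKM in GXUR001 and 206 and 216 FPKM in TE4-10 and a log2 fold change of 0.58 ± 0.09. *POX_c03523* (GH76), a putative α-1,6-mannanase, had 4.74, 5.96 and 5.72 FPKM in GXUR001 and 2.83 and 4.95 FPKM in TE4-10 (0.65 ± 0.24). The chitinase gene was thus higher on both scales, whereas the deposited values of the mannanase gene overlapped. *POX_a00454*, without a named product, belongs to GH162, a family with known activity on β-1,2-glucan. It had 8.12, 7.69 and 8.40 FPKM in GXUR001 and 16.9 and 13.2 FPKM in TE4-10 (-0.56 ± 0.13). *POX_b02718* (GH71), a putative α-1,3-glucanase, averaged 49.5 FPKM in GXUR001 and 87.0 FPKM in TE4-10 (-0.54 ± 0.11).

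**Figure D2:**
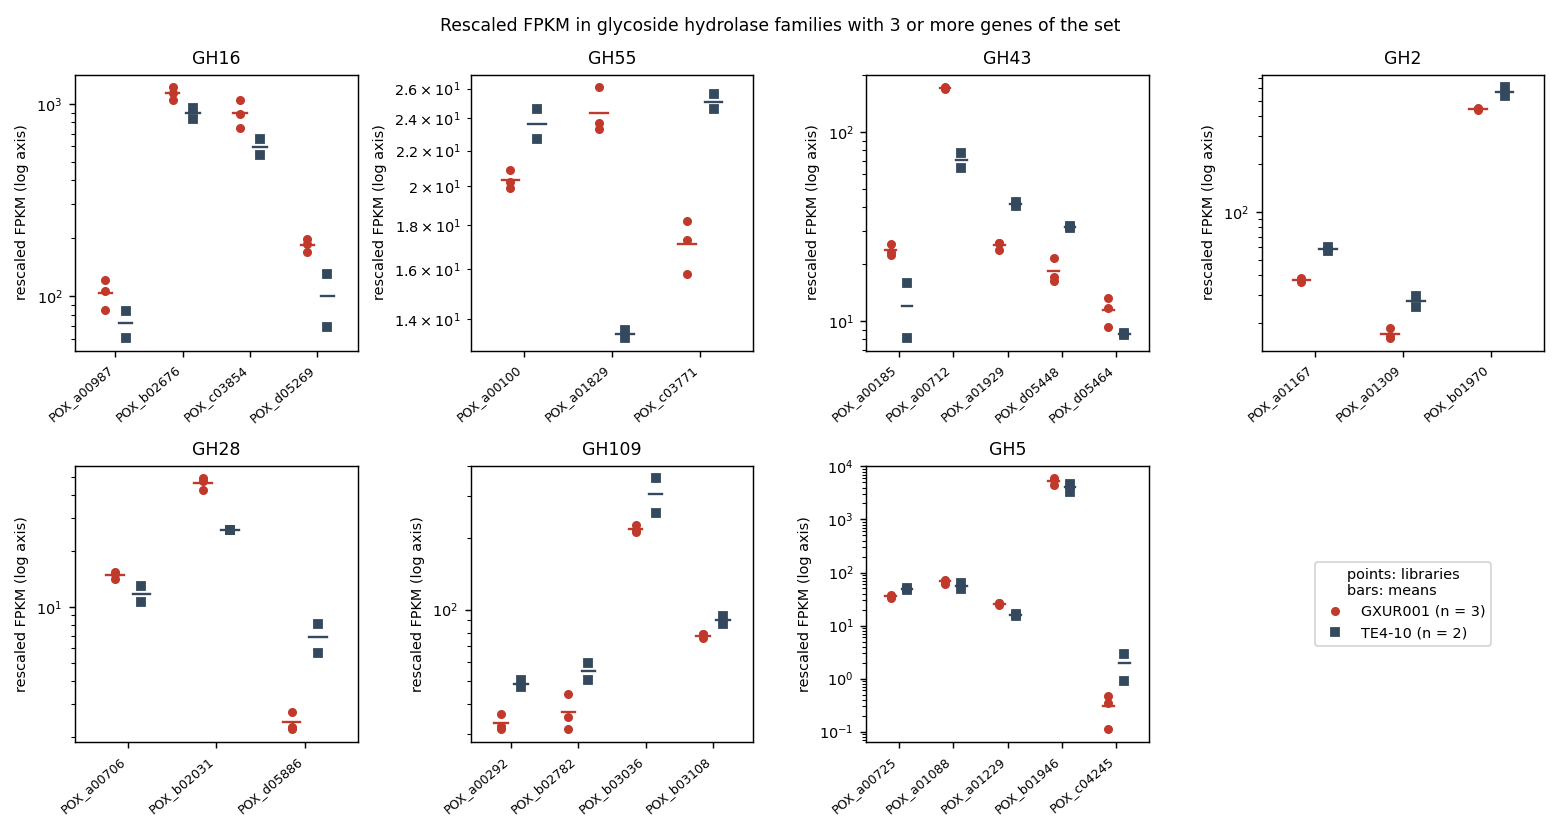
Rescaled FPKM (log axis) of each gene in the families with at least 3 genes of the set, GXUR001 (red circles, n = 3) beside TE4-10 (dark squares, n = 2), with bars for means. All 4 GH16 genes, none of them called, stood higher in GXUR001, all 3 GH2 and all 4 GH109 genes stood lower, and GH5, GH28, GH43 and GH55 held genes of both directions.

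The glycans of glycoproteins were the assigned substrate of 6 genes, 2 of them higher and 4 lower. The 2 higher ones, *POX_d05546* and *POX_d05005*, are listed as hypothetical proteins and were placed here by family alone. *POX_d05546* of GH84, a family of β-N-acetylglucosaminidases that in animals removes single N-acetylglucosamine residues from intracellular proteins, had the highest log2 fold change of the 63, at 1.47 ± 0.19. It stood at 480, 536 and 590 FPKM in GXUR001 and at 192 and 281 FPKM in TE4-10. The difference exceeded the gap between the TE4-10 libraries, and the log2 fold change became 1.16 with TE4-10 replicate 1 left out and 1.77 with replicate 3 left out. At the other end, the GH92 gene *POX_c04031*, a putative α-mannosidase gene, had 2.40, 3.85 and 3.56 FPKM in GXUR001 and 13.1 and 11.2 FPKM in TE4-10, a log2 fold change of -1.40 ± 0.19. The second GH92 gene, *POX_d05562*, had a similar level in TE4-10 but differed by only -0.18 ± 0.11.

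A pair of genes encode enzymes that are known to trim N-glycans along the secretory pathway. *POX_a00742* (GH47), a putative α-mannosidase of the family that removes α-1,2-linked mannose, averaged 282 ± 13.2 FPKM in GXUR001 (SD, n = 3) and had 667 and 449 FPKM in TE4-10, a log2 fold change of -0.68 ± 0.16 that became -0.43 with TE4-10 replicate 1 left out and -0.94 with replicate 3 left out. *POX_a00485*, encoding the α subunit of glucosidase II, which removes glucose from new N-glycans in the endoplasmic reticulum, had a log2 fold change of -0.28 ± 0.09 and was not called. *POX_d05005* of GH125, a family of exo-acting α-1,6-mannosidases, ran the other way (0.54 ± 0.15), with a mean of 192 FPKM in GXUR001 and 159 FPKM in TE4-10. Mannose-trimming families were therefore found on both sides.

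The 9 genes grouped under side chains of hemicellulose and galactan held 3 of the 6 genes with log2 fold changes over 1. Of these 3, *POX_a00712* and *POX_b03436* fit the group name only loosely. Their predicted substrates are a galactan backbone and the arabinan chains of pectin. In this group 5 were higher and 4 lower, and 2 and 2 were called, against 9.74% and 8.08% of all genes. The median log2 fold change was 0.37, again among genes taken from a list of changed genes. The group's summed level was 2013, 1941 and 1690 FPKM in GXUR001 and 1579 and 965 FPKM in TE4-10, and it was set mainly by 1 gene. That gene, *POX_c03492* (GH62), is annotated as a putative α-L-arabinofuranosidase, an enzyme that removes arabinose from arabinoxylan, and also carries a cellulose-binding module (CBM1). It stood at 1583, 1495 and 1228 FPKM in GXUR001 and at 1031 and 523 FPKM in TE4-10, with no overlap. Its log2 fold change of 1.23 ± 0.31 was not called, and leaving out TE4-10 replicate 1 gave 1.69 where leaving out replicate 3 gave 0.77.

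GH43, a family of arabinofuranosidases, xylosidases and galactanases, contributed 5 genes that moved in different directions. *POX_a00712*, a putative exo-β-1,3-galactanase gene for the galactan backbone of arabinogalactan, had 151, 159 and 167 FPKM in GXUR001 and 88.3 and 70.9 FPKM in TE4-10. Its log2 fold change was 1.27 ± 0.10, with the smallest SE among the 10 genes beyond 1 log2 unit, with values of 1.39 and 1.14 when TE4-10 replicates 1 and 3 were left out in turn. *POX_a00185*, a putative α-L-arabinofuranosidase gene, had 22.3, 21.3 and 22.0 FPKM in GXUR001 and 9.29 and 17.5 FPKM in TE4-10 (0.99 ± 0.27). Here the GXUR001 libraries were nearly equal and the TE4-10 libraries differed, so that leaving out TE4-10 replicate 1 gave 0.54 and leaving out replicate 3 gave 1.43.

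The lower GH43 genes were *POX_a01929* and *POX_d05448*. *POX_a01929*, a putative bifunctional β-xylosidase and α-L-arabinofuranosidase gene, had 22.7, 23.9 and 23.6 FPKM in GXUR001 and 46.7 and 47.0 FPKM in TE4-10 (-0.70 ± 0.09). *POX_d05448*, without a named product, had 14.8, 14.9 and 21.3 FPKM in GXUR001 and 36.3 and 34.3 FPKM in TE4-10 (-0.76 ± 0.14). Each stood at clearly separate levels in the strains, and both were called. The fifth gene, *POX_d05464*, shares the product name of *POX_a01929* but had 8.08, 12.2 and 11.6 FPKM in GXUR001 and 9.88 and 9.27 FPKM in TE4-10, overlapping as deposited, with a log2 fold change of 0.37 ± 0.17. GH43 genes of the same predicted activity thus lay on both sides of 0.

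Beyond GH43 and GH62, *POX_b03436* (GH93), a putative exo-α-L-1,5-arabinanase gene for the arabinan chains of pectin, averaged 62.8 FPKM in GXUR001 and 32.6 FPKM in TE4-10, a log2 fold change of 1.22 ± 0.21. A pair of xylose-releasing enzyme genes had negative values. The GH3 gene *POX_a00284*, a putative β-xylosidase, had a log2 fold change of -0.63 ± 0.21, and the GH31 gene *POX_d05838*, a putative α-xylosidase of the kind that acts on xyloglucan, had -0.48 ± 0.15. Neither xylosidase gene was called. Both values depended on the TE4-10 library kept, at -0.36 and -0.25 without replicate 1 and at -0.91 and -0.71 without replicate 3 for *POX_a00284* and *POX_d05838*.

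Of the 6 genes for mannan and galactosides, 1 was higher and 5 were lower. The exception was *POX_b01946* (GH5), a putative β-1,4-mannanase, which cuts the backbone of mannan and was the most abundant gene of the 63, ranking between 15 and 22 among annotated genes in every library. It stood at 5207, 5030 and 4369 FPKM in GXUR001 and at 5395 and 3691 FPKM in TE4-10. These ranges overlapped on both scales, and the log2 fold change of 0.40 ± 0.21 was smaller than the log2 ratio between the TE4-10 libraries.

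All 3 GH2 genes, of the family that takes single mannose or galactose units from chain ends, were lower. The abundant putative β-mannosidase gene *POX_b01970* had 391, 405 and 445 FPKM in GXUR001 and 612 and 672 FPKM in TE4-10, a log2 fold change of -0.36 ± 0.10. *POX_a01167*, the other putative β-mannosidase gene, had 33.4, 34.2 and 36.2 FPKM in GXUR001 and 69.1 and 62.2 FPKM in TE4-10 (-0.63 ± 0.08). *POX_a01309*, a putative β-galactosidase gene, had 14.0, 17.0 and 16.5 FPKM in GXUR001 and 34.0 and 27.9 FPKM in TE4-10 (-0.66 ± 0.12). In GH2 no library of one strain reached the range of the other, and the 2 less abundant genes were called. The GH35 gene *POX_c03547*, a putative β-galactosidase, and the GH36 gene *POX_b02352*, a putative α-galactosidase, which removes galactose side groups, had values of -0.31 ± 0.10 and -0.33 ± 0.12 and were not called.

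GH28 holds the pectin hydrolases. *POX_b02031*, a putative rhamnogalacturonase gene for the branched pectin backbone, had 41.5, 39.3 and 48.9 FPKM in GXUR001 and 29.9 and 28.7 FPKM in TE4-10 (0.81 ± 0.10). *POX_d05886*, a putative exopolygalacturonase gene for the unbranched backbone, was of low abundance, with 1.92, 2.07 and 2.70 FPKM in GXUR001 and 9.27 and 6.18 FPKM in TE4-10 (-1.20 ± 0.21). The pectinase genes called in this family thus differed in direction. *POX_a00706*, a putative rhamnohydrolase gene, had 12.4, 13.9 and 15.2 FPKM in GXUR001 and 14.7 and 11.7 FPKM in TE4-10 (0.32 ± 0.12), overlapping as deposited. *POX_b03073* (GH95), a putative α-1,2-L-fucosidase gene, averaged 22.2 FPKM in GXUR001 and 34.9 FPKM in TE4-10 (-0.37 ± 0.09) and was called.

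The 2 putative β-glucosidase genes, whose enzymes release glucose from cellobiose and related dimers, had positive log2 fold changes and were not called. *POX_a00456* (GH1) had 7.35, 9.06 and 5.92 FPKM in GXUR001 and 4.42 and 4.46 FPKM in TE4-10 (0.85 ± 0.22), without overlap. *POX_a00961* (GH3) had 42.1, 44.0 and 57.1 FPKM in GXUR001 and 37.3 and 55.2 FPKM in TE4-10 (0.33 ± 0.20). The GH3 value rested on 1 library: without TE4-10 replicate 1 it was 0.02.

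Both genes for α-glucosidic sugars were lower. *POX_a01681*, the neutral trehalase gene (GH37), whose enzyme splits the storage sugar trehalose into glucose, had 19.7, 18.4 and 21.7 FPKM in GXUR001 and 39.9 and 36.1 FPKM in TE4-10 (-0.63 ± 0.10), and was called. *POX_b03390* (GH13), a putative α-amylase gene, had 23.7, 27.1 and 33.7 FPKM in GXUR001 and 38.2 and 52.5 FPKM in TE4-10. Its groups were apart as deposited and overlapped after rescaling, and the log2 fold change was -0.40 ± 0.18.

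For the last 15 genes no fungal substrate was assigned here from family or product name, and 12 of them were lower. Their median log2 fold change was -0.43. The 4 genes of GH109, a family known from bacterial enzymes that use NAD to remove N-acetylgalactosamine, were all lower. *POX_b03036* had 189, 193 and 224 FPKM in GXUR001 and 408 and 280 FPKM in TE4-10 (-0.47 ± 0.16). *POX_b03108* had 66.3, 72.4 and 77.9 FPKM in GXUR001 and 99.6 and 104 FPKM in TE4-10 (-0.22 ± 0.08). These are the more abundant members of the family. *POX_b02782* had 27.7, 32.2 and 43.9 FPKM in GXUR001 and 68.2 and 55.8 FPKM in TE4-10 (-0.57 ± 0.17). *POX_a00292* had 31.8, 28.8 and 32.3 FPKM in GXUR001 and 54.0 and 55.4 FPKM in TE4-10 (-0.53 ± 0.10). Although all 4 GH109 genes were apart between the strains, only *POX_a00292* was called.

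GH4, a further NAD-dependent family, was divided. *POX_c04450*, whose product name is putative malate dehydrogenase, had 221, 262 and 284 FPKM in GXUR001 and 427 and 436 FPKM in TE4-10 (-0.49 ± 0.10). *POX_b03083* had 5.56, 5.66 and 6.79 FPKM in GXUR001 and 1.83 and 3.35 FPKM in TE4-10 (1.20 ± 0.23). The gene of this pair with the low level was thus higher in GXUR001, and that with the high level was lower. *POX_d05112*, of GH156, a family founded on a bacterial sialidase, had 9.45, 11.0 and 14.6 FPKM in GXUR001 and 3.82 and 5.90 FPKM in TE4-10, and its log2 fold change of 1.35 ± 0.22 was the second highest of the 63.

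The 3 GH5 genes without a named substrate gave 1 positive and 2 negative values. *POX_a00725*, which the list also marks as a transcription factor of the APSES class, was almost the same in each GXUR001 library, at 33.5, 33.5 and 33.5 FPKM, and stood at 57.7 and 52.5 FPKM in TE4-10 (-0.43 ± 0.09). *POX_a01088* had 61.6, 65.5 and 60.9 FPKM in GXUR001 and 71.6 and 52.8 FPKM in TE4-10, which overlapped (0.30 ± 0.14). *POX_c04245* was barely transcribed, with 0.41, 0.32 and 0.11 FPKM in GXUR001 and 3.40 and 1.01 FPKM in TE4-10. Its log2 fold change of -1.09 ± 0.43 had the largest error of the 63 and was -2.23 with a pseudocount of 0.1, since the added constant weighs most on such low values.

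The other 5 genes of this kind were all lower in GXUR001 and lay between -0.70 and -0.33. The lowest was *POX_b02170* (GH139) at -0.70 ± 0.26, with -0.33 once TE4-10 replicate 1 was left out and -1.07 once replicate 3 was. *POX_b02236* (GH154) had -0.49 ± 0.08 and *POX_d05144* (GH82) had -0.41 ± 0.10, and these 2 were called. *POX_b02785* (GH150) and *POX_a01438* (GH23) had -0.39 ± 0.16 and -0.33 ± 0.11.

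The spread inside TE4-10 bore on many of these values. The rescaled levels of the TE4-10 libraries differed by more than 0.5 log2 units for 15 of the 63 genes (23.8%), against 20.3% of all genes tested. Replicate 1 was the higher one for *POX_c04245* (1.05), *POX_c03492* (0.92), *POX_b02170* (0.74) and *POX_c03714* (0.70). Replicate 3 was the higher one for *POX_d05269* and *POX_a00185* (both -0.89 for replicate 1 over replicate 3), *POX_b03436* (-0.70) and *POX_c03523* (-0.66). The difference between the TE4-10 libraries exceeded the strain difference for 9 of the 63 genes (14.3%), against 43.4% of all genes. That lower share was set by the choice of the genes from a list of changed genes. No gene of the 63 changed sign when either TE4-10 library was left out, and *POX_c04245* was below the level filter without TE4-10 replicate 1. Choice from a list of changed genes favours steady signs but does not fix them. *POX_a00030*, left out by name from the same list, had 0.69 without TE4-10 replicate 1 and -0.05 without replicate 3.

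**Figure D3:**
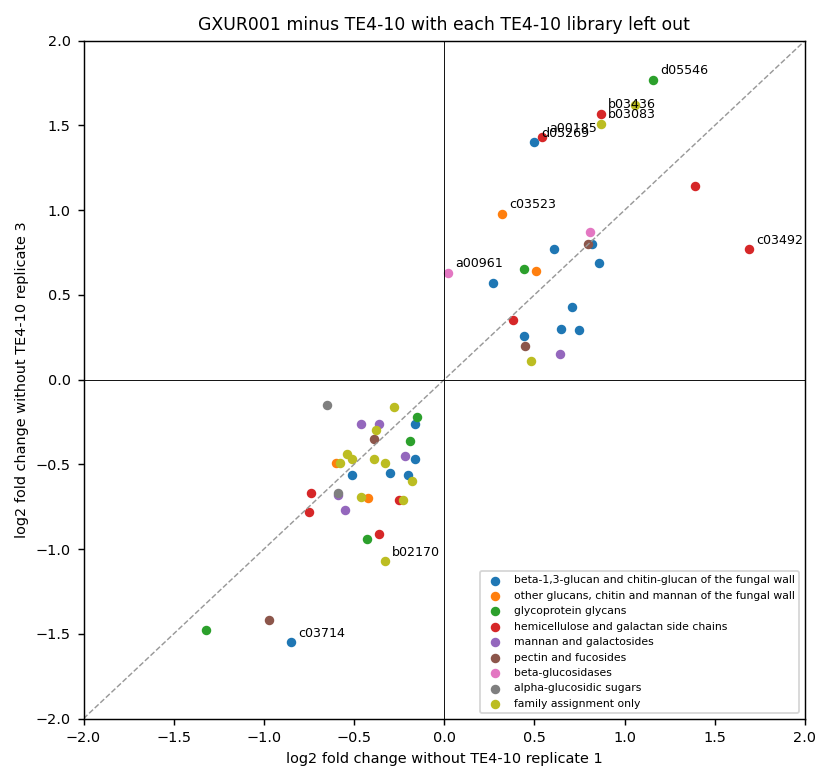
Log2 fold change of each gene (GXUR001 minus TE4-10) without TE4-10 replicate 1 (x axis) and without TE4-10 replicate 3 (y axis), with colours for the substrate groups and a dashed line of equality. *POX_c03492* lies far to the right of the line (1.69 and 0.77), whereas *POX_a00185* (0.54 and 1.43) and *POX_d05269* (0.50 and 1.40) lie above it, and *POX_a00961* lies at 0.02 and 0.63.

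The genes were next placed in gene order, which the choice did not use. Of the 63, 62 were found in a reference gene table (assembly ASM172317v3), which gave 124 neighbouring positions. Of these, 106 held a tested gene without a GH entry on the list, which is 105 different genes because *POX_a00186* lies beside 2 of the 63. The log2 fold change had the same sign as that of the gene beside it at 64 of the 106 positions. Of the 8490 annotated genes tested, the kind that neighbours are drawn from, 841 were called higher and 759 lower. Among the 105 neighbours 16 were called, which is 15.2% against 17.8% of all genes tested, so neighbours were called about as often as other genes. In 13 of the 16 the direction was the same as in the gene beside it. The share of like directions among all adjacent genes was not computed.

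A few stretches stood out when these values were read, and they are described without a test because they were chosen afterwards. Around *POX_c03492*, the log2 fold changes were 1.05 ± 0.22 for *POX_c03490* (GH30, a putative xylanase), 1.53 ± 0.15 for *POX_c03491* (GH43, a putative α-L-arabinofuranosidase), 1.23 ± 0.31 for *POX_c03492* and 0.50 ± 0.10 for *POX_c03493*. The genes on the outer sides of this stretch, *POX_c03489* and *POX_c03494*, had 0.06 ± 0.09 and 0.16 ± 0.19. *POX_c03492* is likewise a putative α-L-arabinofuranosidase gene, and none of the 3 product names mentions arabinoxylan. The galactanase gene *POX_a00712* lay next to *POX_a00713*, a putative acetyl xylan esterase gene, which had 630, 678 and 649 FPKM in GXUR001 and 346 and 269 FPKM in TE4-10 and a log2 fold change of 1.37 ± 0.13. On the other side of *POX_a00712*, *POX_a00711* had -0.33 ± 0.23.

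The arabinofuranosidase gene *POX_a00185* and the GH64 gene *POX_a00187* were separated by *POX_a00186*, and the 4 genes up to *POX_a00188* had log2 fold changes of 0.99, 0.72, 0.42 and 0.74. Among the lower genes, *POX_a01929* lay between *POX_a01928* (-0.71), which is listed as a putative β-xylosidase, and *POX_a01930* (-0.94). The genes of GH109 and GH150, *POX_b02782* and *POX_b02785*, enclosed *POX_b02783* (-1.40 ± 0.20) and *POX_b02784* (-0.85 ± 0.15), which were lower than either of them. The genes just outside the last 2 stretches had values between -0.08 and 0.02.

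**Figure D4:**
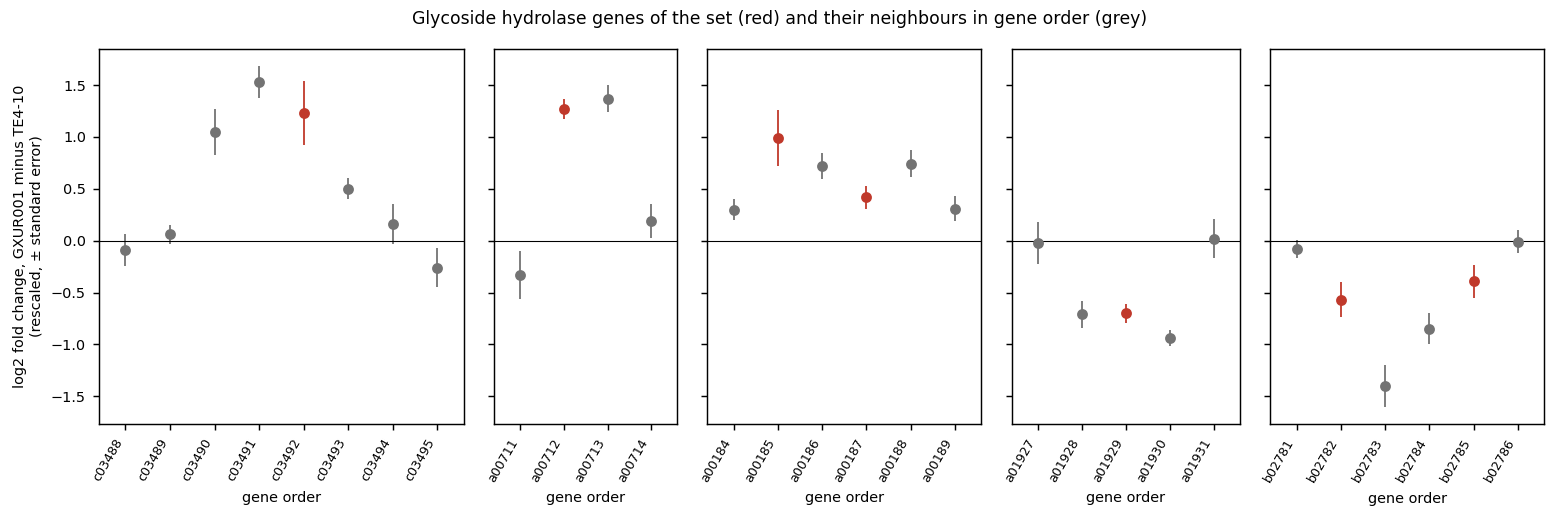
Log2 fold change (GXUR001 minus TE4-10, rescaled FPKM, ± standard error) of genes in 5 stretches of the genome, in gene order, with glycoside hydrolase genes of the set in red and their neighbours in grey. *POX_c03492*, *POX_a00712* and *POX_a00185* lie above 0 with some of their neighbours, and *POX_a01929* and *POX_b02782* lie below with some of theirs. The outermost genes are nearer 0, and some have the other sign, such as *POX_a00711* (-0.33) and *POX_c03495* (-0.26).

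The 63 genes differed in make-up from the 17 GH genes left out by name, which came from the same list. Of the 63, 26 were higher and 37 lower in GXUR001, with a median log2 fold change of -0.31, whereas of the 17 genes 16 were higher and 1 lower, with a median of 1.25. The called genes were 10 higher and 18 lower among the 63, and among the 17 the 10 called genes were higher. Over all genes tested, 9.74% were called higher and 8.08% lower. No test of this difference is given, since both sets were taken from the list of genes changed in these libraries. The summed level of the 63 genes was 13302, 13044 and 12303 FPKM in GXUR001 and 14588 and 11375 FPKM in TE4-10, and that of the 17 genes was 37445, 34615 and 29441 FPKM in GXUR001 and 26788 and 15417 FPKM in TE4-10. The sum over the 63 therefore overlapped between the strains, while that of the 17 genes together did not. Single genes among the 17 did not all follow that sum. The cellulase genes *POX_a00030*, *POX_a00764* and *POX_d04867* overlapped between the strains on both scales. The putative glucoamylase gene *POX_b02418* had a log2 fold change of 0.35 ± 0.09 and the GH13 gene *POX_b03245* one of -0.31 ± 0.11. Both were apart between the strains on both scales, in opposite directions, and neither was called.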

How the data were processed

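RNA-seq libraries of GXUR001 (n = 3) and TE4-10 (n = 2) were used, grouped by their labels. FPKM values were deposited by the authors in a file for each library. The submitters' processing notes name bcl2fastq and HISAT2. The counting tool, strand handling and annotation version are not given in the sources used here, so reads of near-identical or overlapping genes may have been split. FPKM are not counts, and no count test was used.

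Libraries were rescaled by median ratios to their geometric mean. Genes averaging at least 1 FPKM were compared on log2(FPKM + 1) by limma 3.58.1 in R 4.3.3 (eBayes with trend, two-sided, residual degrees of freedom 3, prior 2.45), with Benjamini-Hochberg adjustment over 9636 genes and calls at an adjusted p under 0.05. Fold changes on this scale understate those of low genes. The fit was also run on simulated data with noise drawn independently for each gene, which does not show how far calls hold in the real libraries. Figures were drawn with matplotlib 3.10.9.

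The 63 genes and their substrate groups were chosen with earlier results of these data known. Values in every library are given for the most abundant gene and those of highest and lowest fold change in each group, and for families of at least 3 genes. The fold change and p-value columns of the study's gene list were not used. The low FPKM steps gave only relative depth, so no counting interval is given.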

Additional observations from a re-analysis of the deposited data

How the results depend on the processing

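With 3 and 2 libraries, calls moved with the settings and the direction of the 63 genes did not, which their choice from a list of changed genes favours. With FPKM as deposited, limma called 2661 genes (463 higher), against 1718 (939 higher) after rescaling, and 33 of the 63 were called lower, with a median log2 fold change of -0.58 over the 63 and -0.26 over all genes. Upper quartile scaling gave 1840 genes (798 higher). At an unadjusted p under 0.05, 3436 genes, 21 of the 63 as higher and 30 as lower, passed. The replicate numbers did not pair the samples (same-number correlations of deviations of -0.007 and 0.037). A fit with the replicate block called 0 genes, 0 of the 63 as higher and 0 as lower (2477, 16 and 23 at an unadjusted p under 0.05). That fit left 1 residual degree of freedom. Its block for replicate 2 held only a GXUR001 library, which therefore did not inform the strain difference. Leaving out each library in turn gave 17 to 1836 genes, 0 to 13 of the 63 as higher and 0 to 17 as lower. Without GXUR001 replicate 1 the counts were 539, 5 and 3, without replicate 2 they were 17, 0 and 0 (2299, 16 and 18 at an unadjusted p under 0.05), and without replicate 3 they were 549, 5 and 4. Leaving out TE4-10 replicate 1 gave 1083, 10 and 6, and leaving out TE4-10 replicate 3 gave 1836, 13 and 17. The cause was not tested. The fold change of a gene moved by more than the replicate SD for 52 genes with FPKM as deposited, for 4 with a pseudocount of 0.1, for 23 without TE4-10 replicate 1 and for 25 without TE4-10 replicate 3. Another filter, no trend and annotated genes alone kept every count within 1.5 times. A comparison with other glycoside hydrolase genes of the genome, and gene features from sequence, were not run, because the gene table used here gives no products or sequences.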
